A study of Mus musculus with 46 samples.

Results

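The genes examined encode 35 enzymes of glycolysis and the pentose phosphate pathway, together with the enzymes that set fructose bisphosphate levels and the entry of pyruvate into mitochondria. They were chosen by gene symbol from a list of pathway members, with no measured value in the choice. All 35 symbols were listed in the table of a Max addback experiment, as 36 of its 14056 entries, because the symbol Aldoa stands at 2 gene identifiers. The table of tumour cell lines listed 34 of the symbols, as 35 of its 14360 entries; Ldhb was not listed there.

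RNA was sequenced from cultured cells of mouse thyroid tumours. The mice carried conditional alleles that a tamoxifen-inducible Cre recombined in neuroendocrine cells. In the Max addback group, 3 libraries came from an Rb/p53/Max mutant line transduced with a vector that expresses Max, and in its control group 3 libraries came from the same line transduced with an empty vector. By the library names this line is the one of RPM replicate 2. A separate set held 4 RPM lines (Rb/p53/Max mutant) and 4 RP lines (Rb/p53 mutant), so mutation of Rb and p53 was shared by all 14 libraries. All cells were grown in DMEM with 10% fetal bovine serum, and 32 libraries of whole tumours were not used here. Strain and age were not given in the sources used here. Each line has its own name, whereas all 6 transduced libraries belong to 1 line and nothing says that they were separate cultures. For that experiment the p-values therefore measure only the spread between these libraries, which may be technical.

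Glycolysis turns glucose into pyruvate in a chain of enzyme steps, and lactate dehydrogenase can turn the pyruvate into lactate while regenerating NAD. Most steps are served by several paralogs that differ in tissue use, and the tumour-associated forms (hexokinase 2, platelet phosphofructokinase, aldolase A, lactate dehydrogenase A) are known targets of MYC and of hypoxia-inducible factors in mammalian cells. The pentose phosphate pathway branches off at glucose 6-phosphate: its oxidative arm makes NADPH and its non-oxidative arm interconverts sugars to give ribose phosphate for nucleotides. MAX is the obligate dimer partner of MYC, and its dimers bind the palindrome CACGTG (the E-box), whose core ACGTG is also the core of the hypoxia-inducible factor site.

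Reads over the listed genes totalled 7426964 to 7912573 per Max addback library, 6738614 to 7238672 per empty vector library, 7829982 to 8408913 per RPM library and 8242657 to 8498396 per RP library. Levels are given in CPM, read counts scaled by the authors to library size with TMM factors, and 3 reads correspond to 0.353 to 0.458 CPM, counting error only. The enzyme genes took 0.850 to 1.24% of the reads with Max addback and 1.26 to 1.41% with empty vector, and 0.807 to 1.13% in RPM and 0.644 to 1.01% in RP lines. Max itself read 251, 250 and 220 CPM with addback and 86.3, 83.1 and 96.0 CPM with empty vector, and was higher by 1.43 on the log2 scale (SE 0.09, adjusted p from limma 5.75e-07). In the lines Max read 80.9, 103, 68.9 and 100.5 CPM in RPM against 65.2, 44.7, 50.8 and 57.5 CPM in RP, higher in every RPM line (log2 change 0.68, SE 0.17, limma adjusted p = 0.161, DESeq2 adjusted p = 0.0202). Gene counts do not show which part of the gene the reads cover, so they do not check the mutation. Addback replicate 3 stood apart: its counts differed from those of addback replicates 1 and 2 with a chi-square per degree of freedom of 15.2 and 12.9, against 1.83 between those 2 and 1.72 to 1.86 between empty vector libraries. The Y-linked genes Ddx3y, Eif2s3y, Kdm5d and Uty lay at 0 to 0.257 CPM in the addback libraries and at 60.9 to 177 CPM in the empty vector libraries, so the 2 transduced populations differ in more than the vector. All 8 C cell and neuroendocrine markers looked up were listed, among them Calca. Tg and Tshr, which define thyroid follicular cells, were not listed, while Nkx2-1, used by both cell types, read 344 to 641 CPM in RPM and 421 to 618 CPM in RP lines.

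The hexamer CACGTG stood in 5 of 52 promoter windows of the enzyme genes (9.62%), beside 7.15% of the 32851 mouse promoter windows of the same length, 300 bases from 250 before to 50 after an annotated start. Both strands were searched, and the hexamer reads the same on each. The 5 genes were Ldha, Pfkm, Pfkfb3, Pdk2 and Pfkfb2. The shorter ACGTG, which overlaps every CACGTG, stood in 21 of the 52 windows (40.4%), beside 19.6% of all windows. Shown are the windows with CACGTG of the 3 genes that also passed the test with Max addback, Ldha, Pfkm and Pfkfb3, from RefSeq on GRCm38.p6, 5′ to 3′ on the gene's strand, with the hexamer in capitals. They are chr7:46845554-46845853 (plus strand) for Ldha, chr15:98092339-98092638 (plus strand) for Pfkm and chr2:11502041-11502340 (minus strand) for Pfkfb3.
Ldha promoter: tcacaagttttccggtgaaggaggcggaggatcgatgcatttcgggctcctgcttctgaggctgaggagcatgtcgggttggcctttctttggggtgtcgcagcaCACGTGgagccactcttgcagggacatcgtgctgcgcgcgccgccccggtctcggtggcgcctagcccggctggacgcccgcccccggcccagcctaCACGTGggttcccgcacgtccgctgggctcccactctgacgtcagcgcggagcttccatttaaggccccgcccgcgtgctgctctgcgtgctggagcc
Pfkm promoter: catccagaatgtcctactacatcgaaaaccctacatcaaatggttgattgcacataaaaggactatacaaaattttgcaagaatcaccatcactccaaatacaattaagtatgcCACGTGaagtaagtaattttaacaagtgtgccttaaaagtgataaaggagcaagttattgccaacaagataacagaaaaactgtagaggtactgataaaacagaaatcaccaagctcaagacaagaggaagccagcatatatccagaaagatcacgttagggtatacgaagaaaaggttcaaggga
Pfkfb3 promoter: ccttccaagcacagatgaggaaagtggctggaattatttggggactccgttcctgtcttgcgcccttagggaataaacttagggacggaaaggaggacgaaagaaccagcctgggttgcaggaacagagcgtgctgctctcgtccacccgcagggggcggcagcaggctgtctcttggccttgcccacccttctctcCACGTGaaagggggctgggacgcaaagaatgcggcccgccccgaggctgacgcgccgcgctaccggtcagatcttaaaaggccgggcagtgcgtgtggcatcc
The hexamer begins at positions -145 and -48 from the annotated start in Ldha, the only one of these windows with a pair, whose first bases lie 97 bases apart. It begins at -136 in Pfkm and at -53 in Pfkfb3. Of these genes, Ldha and Pfkfb3 were lower and Pfkm was higher with addback. A letter match is a description and shows no binding.

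Per gene length, transcripts of aldolase A, lactate dehydrogenase A, triose phosphate isomerase and pyruvate kinase were the most abundant of the set. Aldoa averaged 388 ± 102 RPKM in RPM and 447 ± 176 RPKM in RP lines (SD, n = 4 each). Ldha averaged 552 ± 210 RPKM in RPM and 371 ± 96.4 RPKM in RP lines. Tpi1 stood at 342 ± 53.8 and 263 ± 41.9 RPKM in RPM and RP lines, and Pkm, whose M1 and M2 forms gene counts do not separate, at 254 ± 56.3 and 203 ± 44.4 RPKM. In RPM lines the levels of Aldoa and Tpi1 differed by less than their SDs, and in RP lines those of Aldoa and Ldha did. At the low end stood the regulators Pfkfb2, Pfkfb4 and Tigar and the isomerase Rpia, with group means of 3.74 to 8.80 RPKM. Gapdh, commonly among the most abundant transcripts, read only 18.6 ± 4.63 RPKM in RPM and 19.7 ± 2.43 RPKM in RP lines. Stretches of its annotated transcript with at least 95% identity over at least 200 bases occur in 78 other annotated genes, 75 of them pseudogenes, and cover 88.0% of it. Gpi1, Pgk1, Eno1, Pkm, Ldha and Ldhb were likewise covered over more than 50%, so the levels of these 7 genes are uncertain where reads that match a copy were left out or split; 22 entries had no such copy.

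Transcripts along most of the glycolytic chain were lower with Max addback than with empty vector. With Max addback 18 of the 36 entries fell and 5 rose (limma-trend, adjusted p under 0.05 over all genes), beside 25.5% of all 14056 genes lower and 27.7% higher. The entries' median log2 change was -0.35, against -0.002 over all genes. In bulk cultures, fewer cells of a type and less RNA per cell cannot be told apart. Each step from hexokinase to lactate dehydrogenase other than triose phosphate isomerase had a member that fell. The members that rose were the brain-type aldolase Aldoc, Pfkfb4, Ldhb, G6pdx and the muscle phosphofructokinase Pfkm. The groups did not overlap for 23 of the 36 entries, beside 61.9% of all genes. The authors' deposited table calls 4 of the entries higher and 12 lower, beside 18.9% and 13.1% of all genes.

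The fall was shallower in the addback library that stood apart. Addback replicate 3 was the highest addback library for 28 of the 36 entries and for 15 of the 18 that fell. Without it, 23 entries fell and 5 rose, beside 31.7% and 32.5% of all genes, and Pfkl, Tpi1, Eno2, Pdk2 and Pgd joined those that fell. Of the C cell and neuroendocrine markers, 7 of 8 rose with addback, beside 27.7% of all genes, their summed level being 9139 to 10538 CPM with addback and 5046 to 5364 CPM with empty vector. Fibroblast markers, 3 of 7 of them listed, summed to 10.2 to 13.1 CPM with addback and 29.5 to 39.4 CPM with empty vector. They did not move as one: Dcn averaged 5.70 ± 0.701 CPM with addback and 28.6 ± 6.49 CPM with empty vector and fell, as did Col1a1 (log2 changes -2.12 and -1.86), while Pdgfrb averaged 5.08 ± 1.36 and 0.537 ± 0.363 CPM in those groups and rose (log2 change 1.99, limma adjusted p = 5.94e-05). Leukocyte markers summed to at most 3.73 CPM and endothelial markers to at most 1.14 CPM in any of these libraries. The leukocyte gene Ptprc and the erythroid genes were not listed. The part of these shifts, and of the Y-linked difference, in the enzyme changes was not tested.

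**Figure D1:**
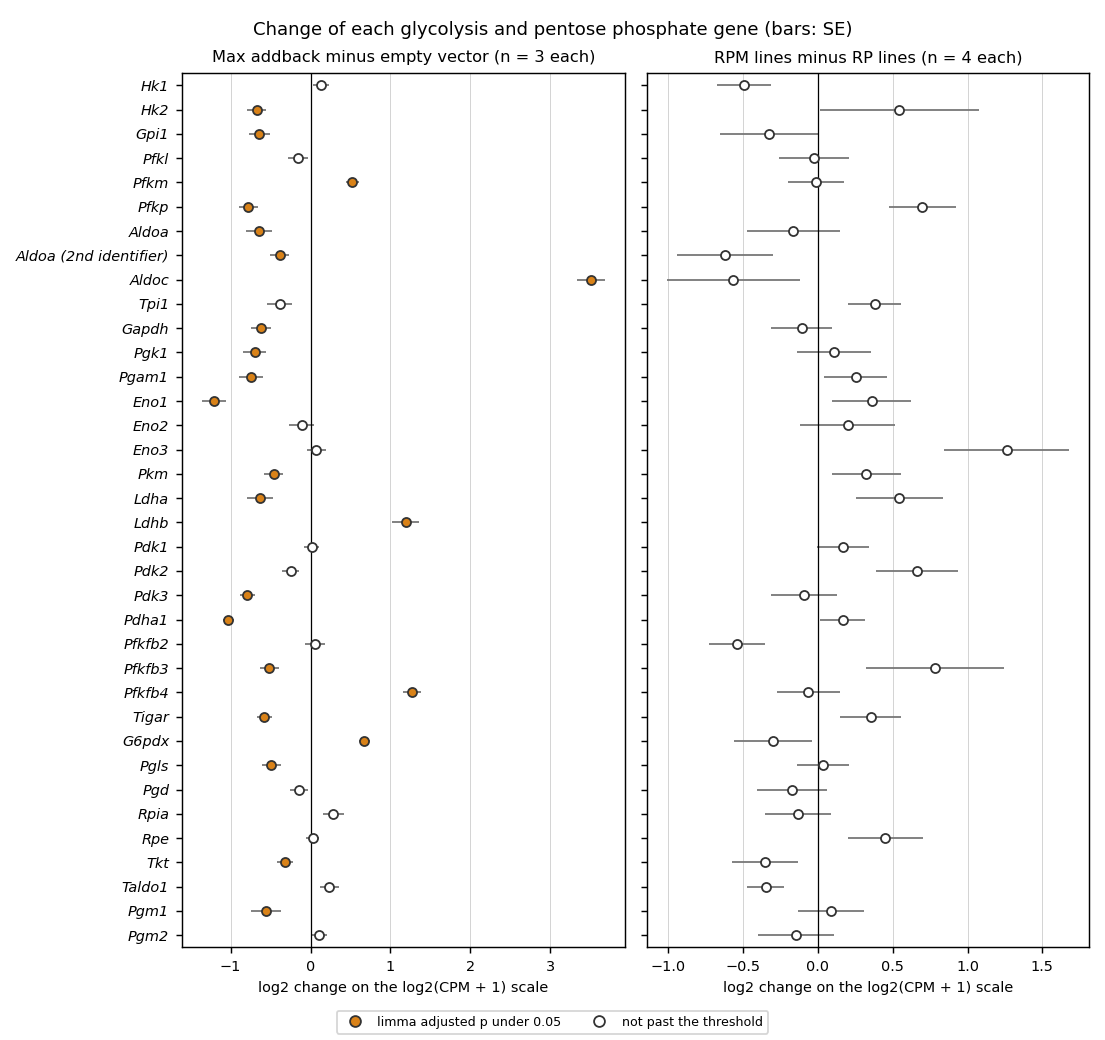
Log2 change, on the log2(CPM + 1) scale, of each enzyme gene with Max addback against empty vector (left, n = 3 each) and in RPM against RP lines (right, n = 4 each); bars are SE and filled points passed the limma threshold. On the left 18 points lie below 0 and 5 above it among the filled ones, Aldoc at 3.51 being the farthest, and on the right no point is filled.

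At the entry to the pathway the inducible hexokinase fell, and the ubiquitous one did not pass the test. Hk2 (ENSMUSG00000000628.10; mm10, chromosome 6, 82725025 to 82774454), which traps glucose as its phosphate, read 129, 155 and 177 CPM with addback, against 247, 217 and 268 CPM with empty vector. Every addback value lay under every empty vector value (log2 change -0.67, SE 0.12, limma adjusted p = 0.00112). Hk1, the housekeeping form, read 210, 214 and 253 CPM with addback and 210, 184 and 224 CPM with empty vector, and the groups overlapped (log2 change 0.13, SE 0.10, adjusted p = 0.305). Gpi1, the next enzyme, averaged 724 ± 124 CPM with addback and 1121 ± 102 CPM with empty vector (SD, n = 3 each) and fell by 0.64 on the log2 scale.

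Of the 3 phosphofructokinases, which commit sugar to glycolysis, the platelet form fell and the muscle form rose. Pfkp (ENSMUSG00000021196.14; chromosome 13, 6579768 to 6648777), the platelet form, read 423, 490 and 554 CPM with addback, against 872, 757 and 877 CPM with empty vector. These groups did not overlap (log2 change -0.78, SE 0.11, limma adjusted p = 0.000279). The muscle form Pfkm read 148, 161 and 170 CPM with addback and 114, 102 and 117 CPM with empty vector, again without overlap but in the other direction (log2 change 0.52, SE 0.09, adjusted p = 0.000602). The liver form Pfkl read 207, 241 and 297 CPM with addback and 274, 262 and 287 CPM with empty vector, and its groups overlapped (log2 change -0.16, adjusted p = 0.293).

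The enzymes that make and break the allosteric activator of phosphofructokinase also split. Pfkfb4 (ENSMUSG00000025648.18; chromosome 9, 108991778 to 109032228) read 24.5, 29.1 and 28.3 CPM with addback, against 11.4, 9.80 and 10.99 CPM with empty vector. It rose by 1.27 on the log2 scale (SE 0.12, limma adjusted p = 1.21e-05), with no overlap. Pfkfb3, a form known for its strong kinase activity, read 75.5, 96.9 and 100 CPM with addback and 132, 117 and 140 CPM with empty vector and fell (log2 change -0.52, adjusted p = 0.00409). Tigar, a phosphatase that lowers the same activator and is known as a p53 target, averaged 31.5 ± 2.56 CPM with addback and 47.5 ± 1.71 CPM with empty vector (log2 change -0.58, adjusted p = 0.0005). Pfkfb2 overlapped between the groups, at 34.1 ± 4.71 CPM with addback and 32.6 ± 2.66 CPM with empty vector.

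The aldolases moved apart, the brain form rising and the general form falling. Aldoc (ENSMUSG00000017390.15; chromosome 11, 78322968 to 78327781), the brain form, read 34.5, 37.1 and 54.5 CPM with addback, against 3.00, 2.56 and 2.60 CPM with empty vector. On the log2(CPM + 1) scale this was the largest change of the 36 entries, 3.51 (SE 0.17, limma adjusted p = 1.48e-07). The authors' deposited table, made on another scale, gives 3.94 for Aldoc and a larger 4.43 for the barely transcribed Ldhb. The Aldoc change rested on 271 to 424 reads per addback library and 17 to 21 reads per empty vector library. Aldoa (ENSMUSG00000030695.16; chromosome 7, 126795234 to 126800751), the muscle and general form, read 1089, 1192 and 1686 CPM with addback, against 2059, 1873 and 2172 CPM with empty vector, without overlap (log2 change -0.64, SE 0.16, adjusted p = 0.00692). The other identifier with that symbol (ENSMUSG00000114515.2; 126800790 to 126809108), just upstream on the same strand, averaged 12.5 ± 1.06 CPM with addback and 16.7 ± 1.33 CPM with empty vector (log2 change -0.39, adjusted p = 0.0215). Its call was lost without empty vector replicate 1 or 2.

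The later glycolytic enzymes fell together, apart from triose phosphate isomerase and 2 of the 3 enolases. Pgk1 (ENSMUSG00000062070.12; chromosome X, 106187100 to 106203699), which makes the first ATP of the payoff phase, read 102, 123 and 162 CPM with addback, against 202, 195 and 221 CPM with empty vector (log2 change -0.70, SE 0.15, limma adjusted p = 0.00265). Pgam1 (ENSMUSG00000011752.7; chromosome 19, 41911923 to 41918660), the mutase that follows, read 16.4, 17.2 and 24.0 CPM with addback, against 32.7, 28.7 and 36.0 CPM with empty vector (log2 change -0.74, SE 0.15, adjusted p = 0.00232). In both genes every addback library lay under every empty vector library. Gapdh fell by 0.62 on the log2 scale, to 97.0 ± 15.6 CPM with addback against 149 ± 16.0 CPM with empty vector, and Pkm by 0.46, to 1279 ± 174 CPM against 1750 ± 99.3 CPM (SD, n = 3 each). Pkm missed the threshold without empty vector replicate 3, at an adjusted p of 0.0503. Tpi1 averaged 914 ± 214 CPM with addback and 1174 ± 68.3 CPM with empty vector and missed the threshold (log2 change -0.39, adjusted p = 0.0571).

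Enolase 1, the general form, fell the furthest of all the entries. Eno1 (ENSMUSG00000063524.13; chromosome 4, 150236721 to 150248879) read 112, 130 and 182 CPM with addback, against 329, 299 and 336 CPM with empty vector. The gap between the groups was wider than the spread within either (log2 change -1.21, SE 0.15, limma adjusted p = 9.98e-05). Eno2, the neuronal form and a marker of neuroendocrine cells, read 146, 142 and 201 CPM with addback and 167, 149 and 211 CPM with empty vector. Eno3, the muscle form, read 61.1, 71.9 and 83.9 CPM with addback and 74.0, 65.5 and 65.2 CPM with empty vector. Both overlapped between the groups, with adjusted p of 0.566 and 0.616.

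Of the enzymes that act on pyruvate or control its use, Ldha, Pdha1 and Pdk3 fell and Ldhb rose. Ldha (ENSMUSG00000063229.15; chromosome 7, 46841475 to 46855627), which favours lactate, read 1715, 2037.3 and 2679 CPM with addback, against 3281, 3130 and 3368 CPM with empty vector, without overlap (log2 change -0.63, SE 0.16, limma adjusted p = 0.00868). Ldhb (ENSMUSG00000030246.11; chromosome 6, 142490249 to 142507957), the heart form, was barely transcribed: it had 12, 10 and 11 reads with addback, against 0, 0 and 1 read with empty vector. The depth-scaled ratio was 28.7 with an exact 95% interval of 4.80 to 1167 for counting error, and the fitted log2 change was 1.19 (adjusted p = 0.000228). Pdha1 (ENSMUSG00000031299.10; chromosome X, 160122209 to 160138413), the catalytic subunit of pyruvate dehydrogenase, read 108, 107 and 104 CPM with addback, against 216, 214 and 227 CPM with empty vector. Its addback libraries hardly differed from each other (log2 change -1.03, SE 0.07, adjusted p = 1.23e-06). Among the kinases that switch that complex off, Pdk3 (ENSMUSG00000035232.8; chromosome X, 93764607 to 93832201) read 77.5, 84.2 and 88.8 CPM with addback, against 158, 133 and 145 CPM with empty vector (log2 change -0.79, SE 0.09, adjusted p = 4.88e-05). Pdk1 averaged 148 ± 16.0 CPM with addback and 146 ± 9.55 CPM with empty vector (adjusted p = 0.918). Pdk2 averaged 29.2 ± 3.66 and 34.8 ± 1.18 CPM in those groups, without overlap but short of the threshold (adjusted p = 0.0749).

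In the pentose phosphate pathway the first enzyme rose, and 4 of the 6 others did not pass the test. G6pdx (ENSMUSG00000031400.10; chromosome X, 74409483 to 74429194), the glucose 6-phosphate dehydrogenase that controls the oxidative arm, read 90.0, 89.3 and 95.9 CPM with addback, against 58.0, 56.8 and 56.3 CPM with empty vector. It rose by 0.67 on the log2 scale (SE 0.07, limma adjusted p = 3.76e-05). Pgls, the lactonase of the second step, averaged 76.0 ± 13.1 CPM with addback and 107 ± 9.31 CPM with empty vector and fell (log2 change -0.49, adjusted p = 0.00633). Pgd, the dehydrogenase of the last oxidative step, overlapped, at 77.3 ± 11.5 and 85.2 ± 7.05 CPM in those groups (adjusted p = 0.301). In the non-oxidative arm Tkt, transketolase, fell by 0.32 on the log2 scale, to 203 ± 27.8 CPM with addback against 253 ± 9.64 CPM with empty vector (adjusted p = 0.0215), a call lost when addback replicate 1 or 2 or empty vector replicate 1 or 3 was left out. Rpia, Rpe and Taldo1 did not pass the test, with log2 changes of 0.29, 0.02 and 0.24. Of the phosphoglucomutases, which link glycolysis to glycogen, Pgm1 read 60.6, 81.1 and 114 CPM with addback and 124, 110 and 133 CPM with empty vector. It was the only called entry whose groups overlapped (log2 change -0.56, SE 0.19, adjusted p = 0.0284), and without addback replicate 1 its log2 change was -0.34 (adjusted p = 0.0726); the call was also lost without addback replicate 2 or empty vector replicate 1 or 3. Pgm2 averaged 37.8 ± 3.80 and 34.9 ± 0.497 CPM with addback and empty vector (adjusted p = 0.377). The 4 X-linked entries, G6pdx, Pgk1, Pdk3 and Pdha1, moved in both directions, and the median log2 change over 470 X-linked genes was -0.011.

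Paralog shares differed between addback and empty vector libraries within nearly every family. Shares are of the family's summed RPKM in a library, the upstream Aldoa identifier left out, and were not tested. Hk1 made up 50.8 ± 2.23% of hexokinase with addback and 37.2 ± 0.228% with empty vector (SD, n = 3 each), the rest being Hk2. Among phosphofructokinases Pfkm led with addback at 39.6 ± 2.11%, against 24.3 ± 0.166% with empty vector, whereas Pfkp led with empty vector: it had 29.98 ± 0.408% with addback and 45.6 ± 0.794% with empty vector. The lead of Pfkm holds per length only, since in CPM Pfkp was the highest form in both groups. The leading enolase per length also differed. Eno3 held 40.8 ± 2.25% with addback and 28.9 ± 2.61% with empty vector, while Eno1 held 25.4 ± 1.58% with addback and 43.8 ± 0.686% with empty vector. In CPM Eno2 was the highest enolase with addback and Eno1 with empty vector, and Eno3 was the lowest in both groups. Near copies cover 85.6% of the Eno1 transcript and none of Eno2 or Eno3, so the Eno1 share may be understated and the Eno3 lead is uncertain. The enolase entry Eno1b, not among the enzyme genes and left out of the sum, averaged 59.9 ± 14.2 CPM with addback and 137 ± 5.73 CPM with empty vector. Pdk3 stayed the leading kinase of its family at 53.7 ± 1.12% with addback and 65.5 ± 0.816% with empty vector, as did Pfkfb3 in its own at 53.7 ± 4.11% and 71.8 ± 1.72%. The lead of Pdk3 holds per length only. In CPM Pdk1 was above Pdk3 with addback (148 ± 16.0 against 83.5 ± 5.66) and level with it with empty vector (146 ± 9.55 and 145 ± 12.8). The share of Pfkfb4 was 25.1 ± 0.179% with addback and 9.24 ± 0.513% with empty vector. Aldoc, in spite of its large change, made up 2.75 ± 0.0498% of aldolase with addback and 0.119 ± 0.0119% with empty vector (2.66 ± 0.0712% and 0.116 ± 0.0112% with the upstream Aldoa identifier, at 15.7 ± 1.33 and 20.9 ± 1.66 RPKM, counted in), and Ldha was at least 99.8% of lactate dehydrogenase in every one of these libraries. Of all the shares, those of Pfkl and Pfkfb2 overlapped between the groups.

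**Figure D2:**
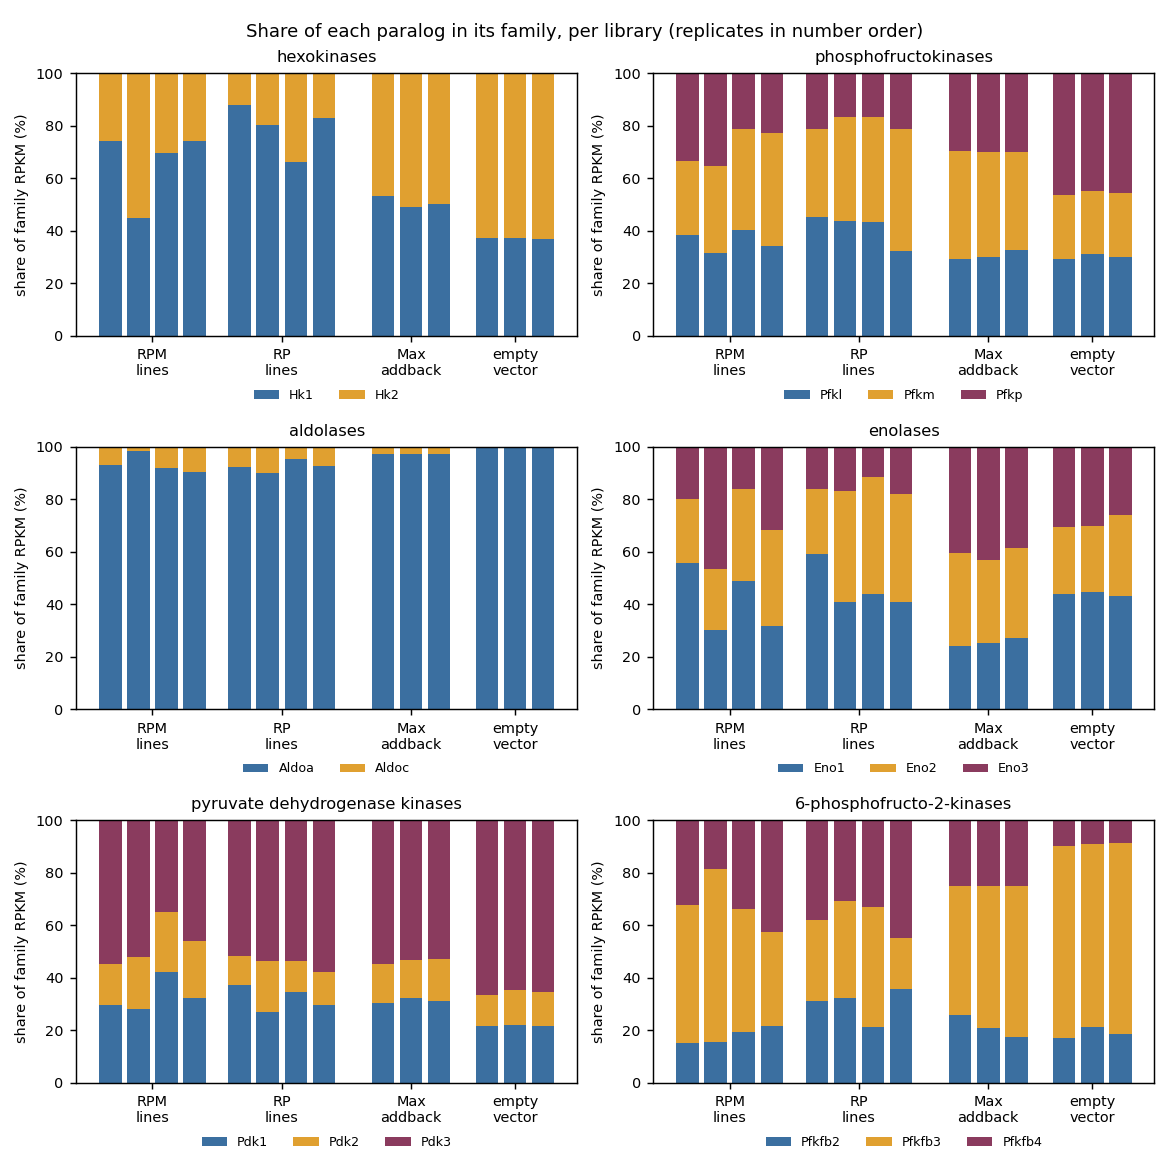
Share of each paralog in the summed RPKM of its family (percent, stacked to 100) in each library of the RPM lines, RP lines, Max addback and empty vector groups. With addback Hk1 and Pfkm take larger shares and Pfkp and Eno1 smaller ones than with empty vector, and RPM replicate 2 (the second bar) has the largest Hk2 and Eno3 shares of the 8 lines.

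Between the tumour line genotypes no enzyme gene passed the test, and levels spread widely within each genotype. In RPM against RP lines no entry of 35 passed the threshold in either direction (limma-trend, adjusted p under 0.05), beside 0.209% of all 14360 genes higher and 0.125% lower. The smallest adjusted p was 0.216, for Pfkp. At an unadjusted p under 0.05 there were 6 entries, beside 15.9% of all genes. The edgeR quasi-likelihood test called none of them, DESeq2 called Pfkp and Eno3 higher (2 entries, beside 2.45% of all genes) and none lower (beside 2.12%), and the authors' deposited table calls Eno3 higher and none lower, beside 1.72% and 2.47% of all genes. The entries' median log2 change was 0.035, with 18 above 0 and 17 below, against -0.005 over all genes. The groups did not overlap for 4 entries, beside 9.37% of all genes.

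Those 4 entries were Pfkp, Eno3, Pfkfb2 and Taldo1. Pfkp read 546, 612, 328 and 333 CPM in the RPM lines, against 266, 291, 283 and 239 CPM in the RP lines (log2 change 0.70, SE 0.22, limma adjusted p = 0.216); with DESeq2 the adjusted p was 0.0473. Eno3 read 17.4, 82.9, 26.7 and 36.8 CPM in the RPM lines, against 15.0, 15.8, 11.9 and 13.1 CPM in the RP lines (log2 change 1.26, SE 0.42, limma adjusted p = 0.232), with RPM replicate 2 far above the rest. DESeq2 gave it an adjusted p of 0.0288 and a log2 change of 1.55. Pfkfb2 read 23.1, 26.9, 31.7 and 26.8 CPM in the RPM lines, against 36.1, 53.03, 38.2 and 33.8 CPM in the RP lines (log2 change -0.54, limma adjusted p = 0.241). Taldo1, the transaldolase of the non-oxidative arm, read 300, 287, 235 and 265 CPM in the RPM lines, against 367, 349, 366 and 301 CPM in the RP lines (log2 change -0.35, adjusted p = 0.248); its nearest values from the groups, 300 and 301 CPM, nearly met.

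The other members that lead their families overlapped between the genotypes. Hk1 read 256, 238, 218 and 279 CPM in RPM lines and 330, 464, 367 and 259 CPM in RP lines (log2 change -0.49, adjusted p = 0.262). Aldoa read 768, 1490, 1167 and 1092 CPM in RPM lines and 1102, 1287, 2010 and 807 CPM in RP lines (log2 change -0.16, adjusted p = 0.822). For Aldoa the RP values alone spanned more than the RPM values. Ldha read 1483, 2859, 1609 and 1358 CPM in RPM lines and 932, 1584, 1408 and 986 CPM in RP lines (log2 change 0.54, adjusted p = 0.39). RPM replicate 2 alone stood above every RP line by a wide margin. Pfkl read 313, 272, 312 and 248 CPM in RPM lines and 280, 382, 363 and 182 CPM in RP lines (log2 change -0.03). Eno1 read 151, 166, 251 and 114 CPM in RPM lines and 173, 119, 139 and 92.4 CPM in RP lines (log2 change 0.36). Pdk3 read 83.1, 77.5, 45.9 and 61.9 CPM in RPM lines and 55.2, 82.0, 83.6 and 62.5 CPM in RP lines (log2 change -0.09). Pgm1 read 127, 87.6, 95.6 and 138 CPM in RPM lines and 114, 136, 98.9 and 74.5 CPM in RP lines (log2 change 0.09). In each of these 4 the groups interleaved. Pfkfb4, which led its family per length in RP lines, read 33.3, 21.6, 37.5 and 35.7 CPM in RPM lines. It read 29.8, 34.0, 39.9 and 28.7 CPM in RP lines (log2 change -0.07), also with overlap. Pdk3 led its family per length only, since Pdk1 averaged 141 ± 19.5 CPM in RPM and 126 ± 27.4 CPM in RP lines. G6pdx averaged 96.4 ± 39.3 CPM in RPM and 114 ± 21.6 CPM in RP lines (log2 change -0.30). The remaining entries had log2 changes of -0.62 to 0.78, none past the threshold.

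**Figure D3:**
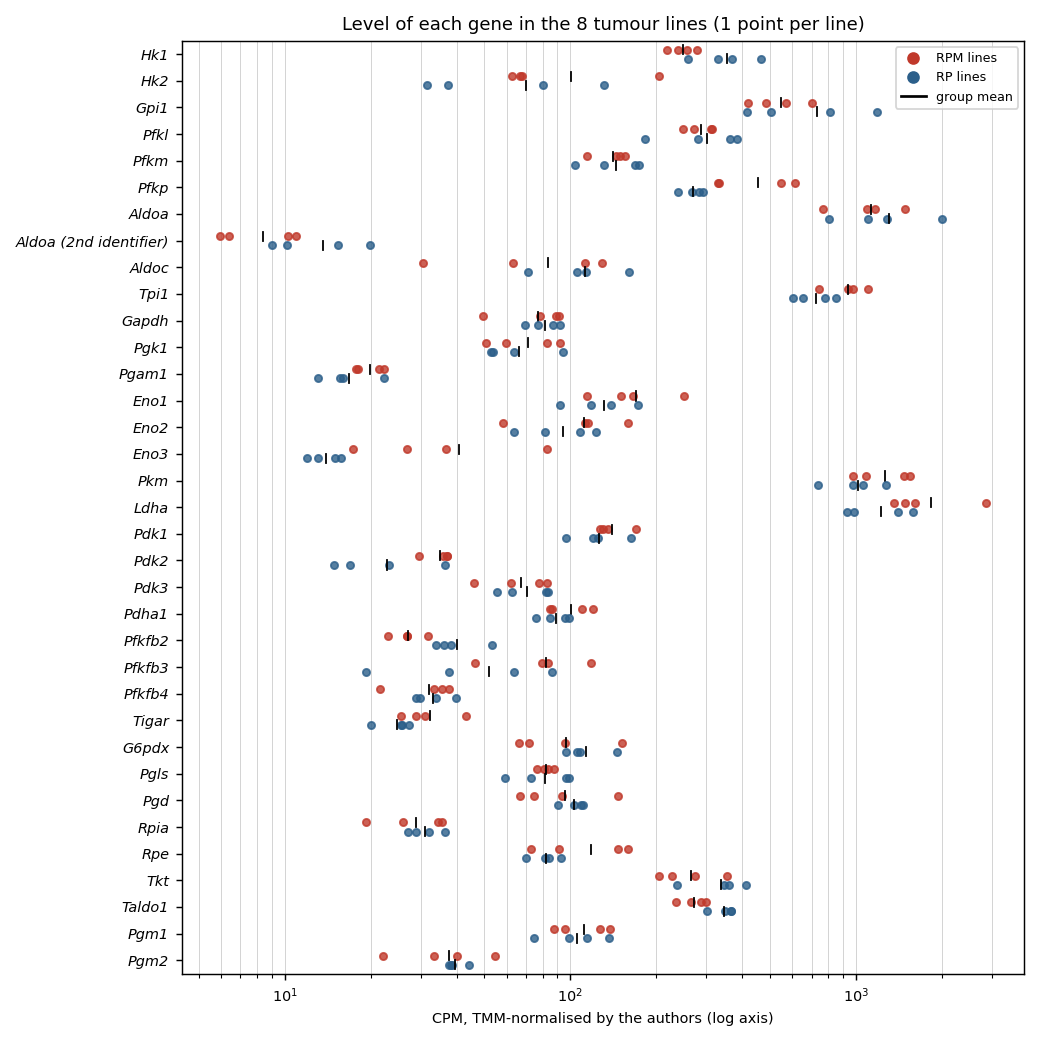
Level of each enzyme gene in CPM (log axis) in the 4 RPM and 4 RP lines, 1 point per line, with a tick at the group mean. Hk2, Pfkfb3, Aldoc and Eno3 spread widest, and 4 genes (Pfkp, Eno3, Pfkfb2, Taldo1) have groups that do not overlap.

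The 3 most variable entries over the 8 lines were Eno3, Hk2 and Pfkfb3. Eno3 had an SD of log2(CPM + 1) of 0.91 and a 6.94-fold span between its highest and lowest line, and nearly all of its spread lay among RPM lines (SD 0.93 there and 0.17 among RP lines). Hk2 read 62.4, 205, 66.9 and 68.0 CPM in the RPM lines and 31.6, 80.2, 132 and 37.4 CPM in the RP lines, a 6.48-fold span (SD 0.82 among RPM and 0.95 among RP lines). Pfkfb3 read 83.7, 118, 79.9 and 46.3 CPM in the RPM lines and 37.5, 63.7, 86.4 and 19.3 CPM in the RP lines, a 6.13-fold span. All 3 belong to the inducible or tissue-restricted forms of their families, but so does the muscle form Pfkm, whose SD over the 8 lines was only 0.26. Next in spread after Eno3, Hk2 and Pfkfb3 was Aldoc, at 62.9, 30.4, 112 and 129 CPM in RPM and 106, 160, 113 and 71.4 CPM in RP lines. The steadiest entries were Pdha1 and Taldo1, with SDs of 0.22 and 0.23 over the 8 lines. The median SD of the entries was 0.38 among RPM and 0.33 among RP lines, against 0.34 and 0.29 over all genes. RPM replicate 2 was the highest RPM line for 15 of the 35 entries and RP replicate 4 the lowest RP line for 19.

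Paralog shares overlapped between RPM and RP lines in every family, and they also varied among the lines of each genotype. Hk2 made up 34.4 ± 14.1% of hexokinase in RPM and 20.7 ± 9.34% in RP lines (SD, n = 4 each), and its share passed that of Hk1 only in RPM replicate 2, at 55.2%. Eno3 held 28.5 ± 13.7% of enolase in RPM and 15.5 ± 2.72% in RP lines, reaching 46.4% in RPM replicate 2. Pfkp held 28.2 ± 7.21% of phosphofructokinase in RPM and 19.0 ± 2.66% in RP lines. Pfkl had the highest mean share, at 36.1 ± 4.03% in RPM and 41.1 ± 5.89% in RP lines. Pfkm stood close, at 35.7 ± 6.44% and 39.95 ± 5.36%, and the leading form varied from line to line. In CPM Pfkp was above Pfkl in RPM lines (455 ± 146 against 286 ± 32.0) but not in RP lines (270 ± 23.1 against 302 ± 91.4). Pfkfb2 held 17.9 ± 3.07% of its family in RPM and 29.96 ± 6.18% in RP lines. Its ranges, 15.1 to 21.5% and 21.2 to 35.5%, barely overlapped. Pfkfb3 held 50.2 ± 12.5% in RPM and 33.4 ± 11.1% in RP lines, and Pfkfb4 31.9 ± 9.98% and 36.7 ± 6.34%. The leading form by mean share was thus Pfkfb3 in RPM and Pfkfb4 in RP lines. In CPM Pfkfb3 had the highest mean of the family in both genotypes. The group means lay closest in aldolase, with Aldoa at 93.5 ± 3.35% in RPM and 92.5 ± 2.15% in RP lines, though the Aldoc share ran from 1.79 to 10.0% over the lines. C cell and neuroendocrine markers summed to 4595 to 23181 CPM in RPM and 4791 to 7038 CPM in RP lines, and none of the 8 passed the test. Fibroblast markers summed to 17.6 to 59.7 CPM in RPM and 29.7 to 161 CPM in RP lines; their part in the line spread was not tested.

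The library of RPM replicate 2 is the same line without either vector, which shows where the enzymes stood without one. Levels were rescaled together over the 13528 genes that both tables list, because the authors normalised the tables separately; there is 1 such library, so nothing was tested. Of the 18 entries that fell with addback, 10 lay within the addback range in the untransduced library, 2 below both ranges, 5 between them and 1, Pfkfb3, within the empty vector range. Addback replicate 3, the library that stood apart, widened the addback range. Of the 10, only Gapdh and Pdk3 also lay between addback replicates 1 and 2, and the rest lay above both of these. Eno1 read 166 CPM untransduced, above addback replicates 1 and 2 (111 and 129 CPM) and under addback replicate 3 (182 CPM). With empty vector Eno1 read 298 to 336 CPM. Ldha, at 2844 CPM, lay between 1704 to 2689 CPM with addback and 3115 to 3370 CPM with empty vector. The 4 of the entries that rose and were listed in both tables lay between the ranges, with Aldoc at 30.3 CPM against 34.2 to 54.7 CPM with addback and 2.55 to 3.00 CPM with empty vector. In all, 13 of 18 entries that fell and 3 of 4 that rose were nearer the addback than the empty vector mean on the log2 scale in the untransduced library. The same counts over all called genes are not given here, so this closeness is not shown to be particular to the enzymes. On the 4 Y-linked genes and Max the untransduced library stood nearer the empty vector cells on the log2 scale, which does not hold for every other gene. In its own table's scaling it read 43.3 to 125 CPM for the 4 Y-linked genes and 103 CPM for Max, so the Y-linked genes set the addback cells apart from both. What makes either transduced population differ from the parent line was not tested.

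**Figure D4:**
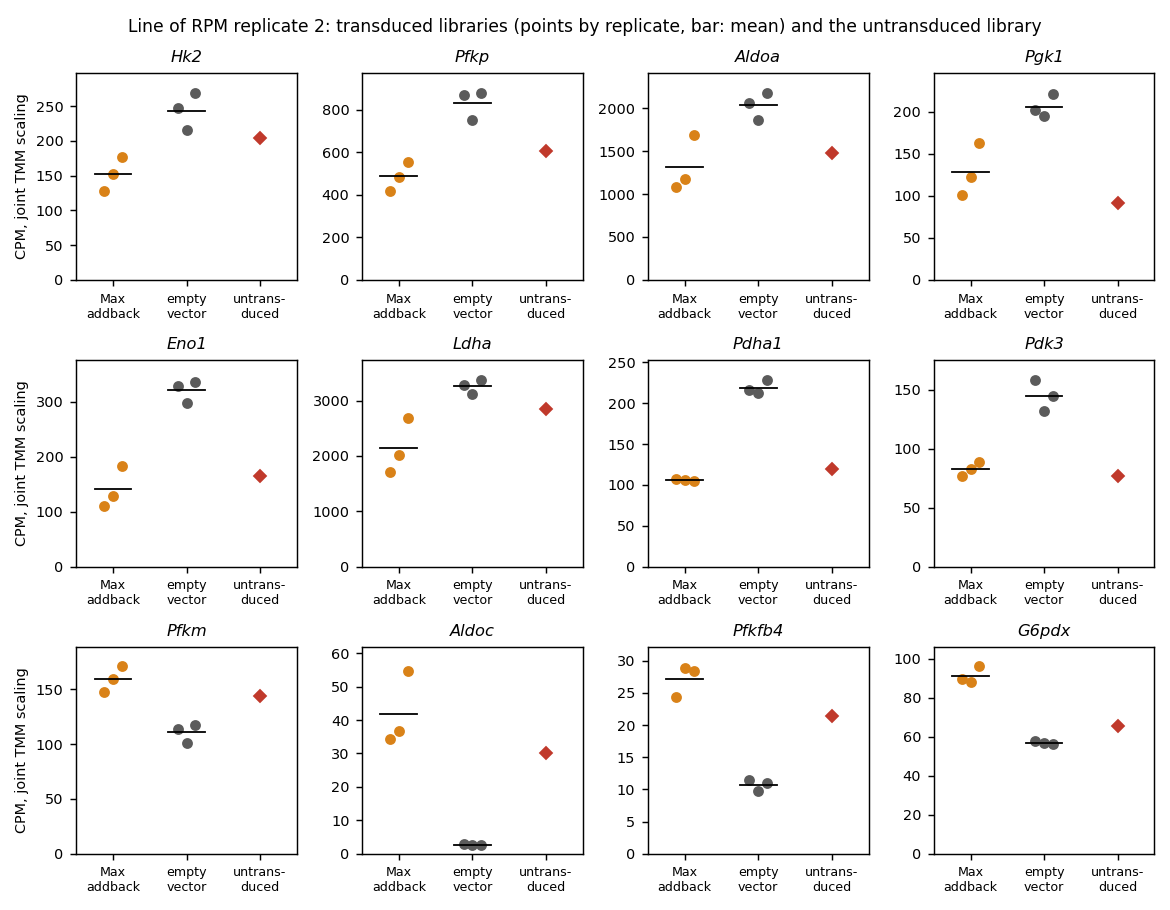
CPM after joint scaling of 12 enzyme genes in the Max addback libraries, the empty vector libraries (points by replicate, bar at the mean) and the untransduced library of the same line (diamond, 1 library). Eno1, Pdk3, Pgk1 and Aldoc show untransduced values near or below the addback points, while Hk2 lies just under the lowest empty vector point and Ldha between the groups.

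Genes that feed or flank these enzymes were taken from lists of transporters, partners, other isozymes, branches, regulators and hypoxia genes. In RPM against RP lines 0 of 60 listed genes passed the threshold (limma), beside 0.209% of all genes higher and 0.125% lower. The smallest limma adjusted p was 0.051, for the pyruvate dehydrogenase partner Pdpr. With addback 16 of 59 rose and 21 fell, beside 27.7% and 25.5% of all genes, with a median log2 change of -0.08; the share that rose was close to that of all genes. Of the hypoxia genes outside glycolysis 6 of 9 fell and none rose, beside the same shares, and their median log2 change was -0.58 against -0.002 over all genes. Egln3, a prolyl hydroxylase induced by hypoxia that marks hypoxia-inducible factors for destruction, averaged 154 ± 24.1 CPM with addback, against 710 ± 30.4 CPM with empty vector (log2 change -2.21, SE 0.11). Its paralogs went the other way: Egln1 read 242 to 351 CPM with addback and 178 to 206 CPM with empty vector (log2 change 0.56, limma adjusted p = 0.00403), and Egln2 averaged 71.9 ± 7.41 CPM with addback and 60.1 ± 3.89 CPM with empty vector (log2 change 0.25, adjusted p = 0.0475). The Egln2 call was lost without addback replicate 2 or any 1 empty vector library, and with DESeq2. Fbp2, a bisphosphatase of the reverse pathway, averaged 5.96 ± 1.01 and 0.241 ± 0.161 CPM in those groups (fitted log2 change 2.49, SE 0.18), with 1 to 3 reads per empty vector library.

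Transport across the plasma membrane did not follow a common direction. The glucose transporter Slc2a1 averaged 205 ± 49.9 CPM with addback and 190 ± 19.7 CPM with empty vector (log2 change 0.09, limma adjusted p = 0.66). Slc2a3, the neuronal glucose transporter, averaged 20.4 ± 0.434 CPM with addback and 14.3 ± 1.67 CPM with empty vector and rose (log2 change 0.49, adjusted p = 0.00558). Of the lactate transporters, Slc16a3, known for export from glycolytic cells, read 210, 281 and 357 CPM with addback, against 87.2, 87.8 and 86.1 CPM with empty vector, and rose (log2 change 1.66, adjusted p = 1.41e-05). Slc16a1 read 18.7, 26.3 and 24.8 CPM with addback, against 39.2, 43.9 and 43.7 CPM with empty vector, and fell (log2 change -0.85, adjusted p = 0.000402). In RPM and RP lines Slc16a3 averaged 243 ± 84.9 and 139 ± 73.7 CPM, Slc16a1 23.1 ± 14.6 and 15.7 ± 7.46 CPM, and Slc2a1 121 ± 15.0 and 130 ± 28.9 CPM. These 3 overlapped between the genotypes. Slc2a3 did not: it read 11.1, 20.1, 30.9 and 12.6 CPM in RPM lines against 0.12, 0.361, 0.366 and 4.71 CPM in RP lines, short of the threshold with limma (log2 change 3.30, SE 0.56, adjusted p = 0.0609) and edgeR (0.212) and past it with DESeq2 (0.00543). Without RP replicate 4 or RPM replicate 1 it passed with limma, at adjusted p of 0.024 and 0.0401.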

How the data were processed

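Per the labels' protocols, total RNA was isolated (Trizol, column kit) and sequenced from Ultra RNA kit libraries. Per the submitters' processing notes the tools were bcl2fastq 1.8.4, TopHat2 2.1.0, HTSeq 0.6.1 and edgeR on build mm10; annotation and gene filter: not given in the sources used here. Strand use in counting is also not stated, so a gene and its antisense partner cannot be separated. Per the file headers the authors deposited, in 2 tables normalised separately, a TMM-normalised CPM signal and RPKM values per gene and library, edgeR results (log2 fold change, log2 level, p-value and FDR) and a call score of -1, 0 or 1. Member identifiers were matched, versions included, to GENCODE vM21 (GRCm38) for coordinates.

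CPM values were whole multiples of 1 read in each library (100% of values within 0.01 of a read), which gave whole reads and totals. The main test was limma-trend (limma 3.58.1) on log2(CPM + 1), fitted per table without covariates on its own libraries, with Benjamini-Hochberg adjustment over all listed genes, two-sided, at a threshold of 0.05; changes on this scale are understated for low genes. Alternatives were pseudocounts of 0.1 and 4, a mean of at least 1 CPM, edgeR 4.0.16 quasi-likelihood and DESeq2 1.42.0 on recovered reads, median-ratio size factors, a replicate block and leaving out each library. Near copies were found with blastn 2.17.0 and shares computed from RPKM. The fits were tested on simulated data. Chi-square values between replicates all lay above sampling noise, so no library was merged. Groups and replicate numbers came from the labels. RPM replicate 1 shares its animal identifier with tumour libraries whose label says Rb/p53 mutant; its own label was kept. Values in every library are given for the 12 called members with the largest absolute log2 change, the leading paralog of each family and the 3 most variable members; Pfkm, Eno2, Pfkfb2, Taldo1 and Aldoc in the lines, and the neighbours and markers Slc2a3, Egln1, Egln2, Dcn, Col1a1 and Pdgfrb, were added after their values were seen. The members and lists were chosen with earlier results of these data known. Some items covered by these rules are not reported here.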

Additional observations from a re-analysis of the deposited data

Results flagged for a closer look

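By Dixon's criterion at the 95% level, 4 of 70 group sets of 4 lines held an outlying value, and chance alone flags about 1 in 20. Hk2 in RPM replicate 2 had a gap to the nearest line of 0.961 of the group's range, at 205 CPM with the other RPM lines at 62.4 to 68.0 CPM. Ldha in the same line had a ratio of 0.833, at 2859 CPM against 1358 to 1609 CPM in the others; this is the line that was later transduced. Pdk2 was lowest in RPM replicate 1, with a ratio of 0.849 (29.6 CPM against 35.9 to 37.0 CPM). Pgm2 was highest in RP replicate 1, with a ratio of 0.851 (44.2 CPM against 37.5 to 38.5 CPM).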

How the results depend on the processing

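In RPM against RP lines the count of called enzyme genes was 0 under every alternative run except DESeq2, which called 2, both higher; leaving out each line in turn, RPM replicate 1 included, gave 0. With addback the count of entries that fell was 15 to 23 and of those that rose 5 to 7 when each library was left out in turn, 18 and 5 with pseudocounts of 0.1 or 4, edgeR, DESeq2 and median-ratio factors, and 18 and 4 with a mean of at least 1 CPM, which removes Ldhb. DESeq2 lost the call of the upstream Aldoa identifier and added Tpi1. No called entry changed direction. The replicate numbers do not pair the libraries: deviations of same-numbered libraries correlated at 0.402, 0.047, 0.012 and 0.127 in the lines and at 0.032, 0.012 and 0.079 in the addback experiment, and 3 of 8 and 3 of 6 libraries correlated best with their own number. With the replicate number as a block, 0 entries were called in the lines, and 19 fell and 5 rose with addback, Tpi1 being added. Shares computed from CPM, which weighs longer transcripts more, moved by over 1 SD for 46 of 76 paralog and group means. The joint scaling and the aldolase sum with the upstream Aldoa identifier were chosen after seeing the data; with the deposited scaling 13 of 18 entries that fell were again nearer addback. Depth limits Ldhb (0 to 12 reads a library); no other member had under 17 reads.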
